A study of Arabidopsis thaliana with 8 samples.

Results

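The WRKY family of plant transcription factors was followed across seedlings labelled as carrying the as1-1 allele, the tfl2-1 allele, both or neither. A gene was taken as a member when the reference annotation gave it a symbol made of WRKY and a number and when at least 1 of its probes was flagged well above background on both arrays of at least 1 genotype. The annotation held 67 such symbols, 65 of them had a matched probe on the array, and 48 passed the background criterion, among 22668 genes tested in all. The criterion used detection and no difference between genotypes. A further 5 loci with a WRKY name as a synonym (among them TTG2 and ABO3) stand under another symbol and were not counted.

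WRKY proteins bind the W-box, a short promoter element, through the conserved domain that gives the family its name, and many of them also bind the promoters of other WRKY genes. In leaves they are known as regulators of defence, with members that act in salicylic acid signalling, in the early response to microbial elicitors and to wounding, and as brakes on these responses, and as regulators of leaf senescence, of phosphate supply and of the onset of flowering. The family is divided into class I, with a pair of WRKY domains, classes IIa to IIe, and class III, which has a different zinc finger. AS1, named for its asymmetric leaves, is a MYB-type repressor that shapes leaves and keeps class I KNOX genes silent, and TFL2, also known as LHP1, is a chromodomain protein that binds the histone mark left by the Polycomb complex.

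Transcripts were measured on one-colour Agilent arrays in whole seedlings of the Col-0 ecotype at 12 days of age, kept on MS plates at 22 °C under long days, with light for 16 h and darkness for 8 h. The 4 genotypes were wild type (WT), as1-1 (AS1 mutant, TFL2 intact), tfl2-1 (TFL2 mutant, AS1 intact) and as1-1 tfl2-1 (both mutant, called the double mutant here), with 2 arrays each. The labels number the arrays of a genotype and do not give their origin, separate cultures or not, so p-values measure the spread between these arrays, which may be technical. In whole seedlings, fewer cells of a type and less RNA per cell cannot be told apart.

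The file headers place the WT and as1-1 arrays on 1 slide and the tfl2-1 and double-mutant arrays on another. The comparisons of as1-1 with WT and of the double mutant with tfl2-1 therefore lie within a slide and share no array. Comparisons across TFL2 genotypes also cross the slides, and there slide and genotype cannot be told apart. The share of probes flagged above background ran from 67.1% to 72.5% per array. After scaling, 8 labelled spike-in probes differed between genotypes by no more than 0.317 on the log2 scale, but all in one direction. Their differences from WT were -0.174 to -0.084 in as1-1, -0.24 to -0.057 in tfl2-1 and -0.317 to -0.207 in the double mutant. Between the double mutant and tfl2-1 they were -0.219 to -0.077, and for the interaction defined below -0.08 to 0.061. Some called differences of members were no larger than these.

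AS1 itself read 2526 and 2411 in WT, 1744 and 1759 in as1-1, 2021 and 1944 in tfl2-1, and 2389 and 2629 in the double mutant, where a value is the processed signal after scaling all arrays to one 75th percentile. It was lower in as1-1 than in WT (log2 difference -0.49, adjusted p = 0.00394), but in the double mutant the difference from WT was 0.02 (adjusted p = 0.771). TFL2 read 1159 and 1076 in WT, 1022 and 1102 in as1-1, 520.1 and 533.2 in tfl2-1, and 665.5 and 680.8 in the double mutant, and was thus lower on the 4 arrays labelled with the tfl2-1 allele. The labels do not say whether either allele lowers its own transcript. The summed signal of 8 leaf photosynthesis markers was 2303000 to 2424000 in WT, 2199000 to 2215000 in as1-1, 1792000 to 1932000 in tfl2-1 and 1549000 to 1671000 in the double mutant. Of 9 root markers, between 5 and 7 were below background on both arrays, depending on the genotype, although the labelled tissue is the whole seedling. The summed signal of 8 floral markers was 485.5 to 489 in WT, 1035 to 1077 in as1-1, 33840 to 35620 in tfl2-1 and 28810 to 30290 in the double mutant.

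Of the 48 members, 43 were above background on all 8 arrays by the probe used, 4 were below it on both arrays of at least 1 genotype (WRKY10, WRKY36, WRKY38 and WRKY62), and WRKY41 was above it on 1 of 2 arrays in 3 genotypes. WRKY10, WRKY38, WRKY41 and WRKY62 entered through the double mutant alone, and WRKY36 through it and tfl2-1, so counts that include them are descriptions. With only probes above background on all 8 arrays, 43 members were left, of which 20 were called in as1-1 against WT and 32 in tfl2-1 against WT, where 22.1% and 57.4% of all genes were called. A difference was called at an adjusted p under 0.05 in limma, with Benjamini-Hochberg adjustment over all genes. By that rule 45 members were called in at least 1 of 6 comparisons, and WRKY38, WRKY41 and WRKY58 were called in none.

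**Figure D1:**
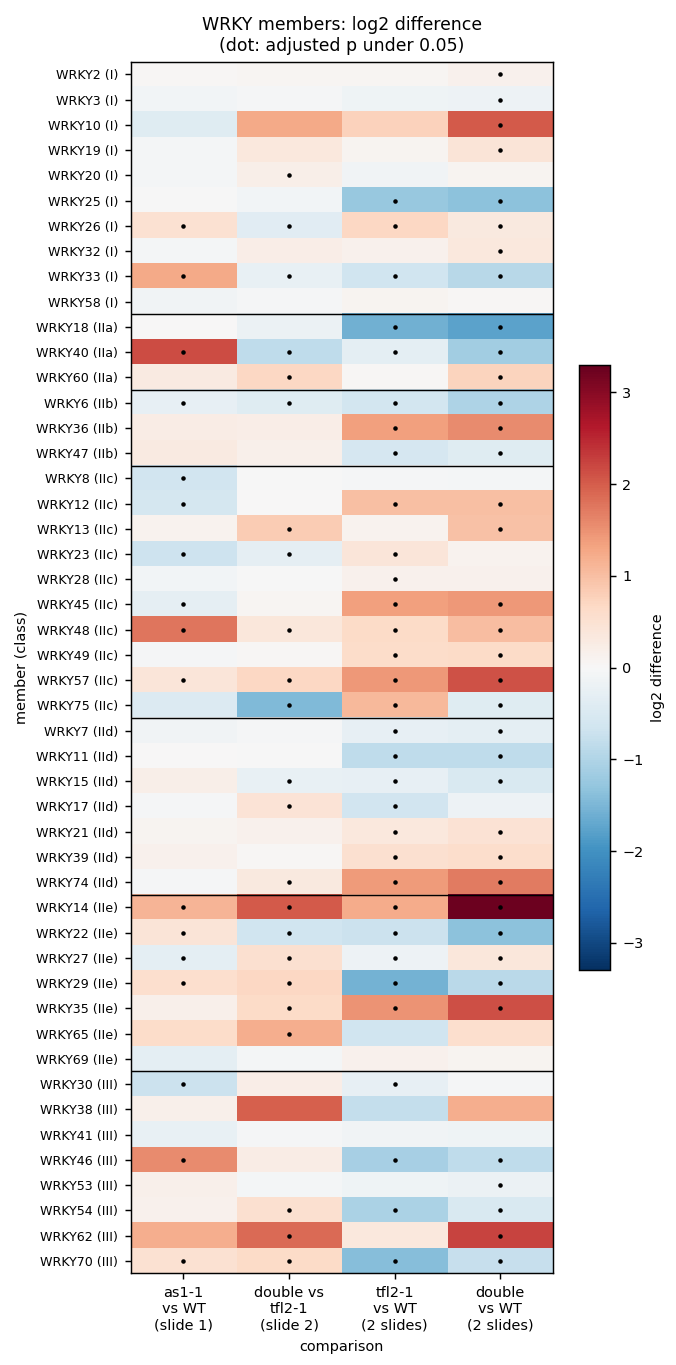
Heat map of the log2 difference of the 48 WRKY members in 4 comparisons (colour scale, blue lower and red higher), one row per member; a dot marks an adjusted p under 0.05 in limma. The columns for the as1-1 allele in TFL2 plants and in tfl2-1 plants differ in colour for WRKY40, WRKY33, WRKY46 and WRKY22.

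In as1-1 seedlings 10 members rose and 7 fell, and the largest rises were those of WRKY40, WRKY48, WRKY46 and WRKY33. WRKY40, a repressor that acts with WRKY18 and WRKY60 to restrain defence, read 1601 and 1727 in WT and 7713 and 7059 in as1-1. WRKY48, a negative regulator of basal resistance, read 92.43 and 78.72 in WT and 277 and 301.3 in as1-1. WRKY46, a class III factor of the salicylic acid response, read 78.44 and 75.98 against 227.5 and 230.3. WRKY33, the activator of camalexin synthesis and a substrate of the kinases MPK3 and MPK6, read 1579 and 1539 against 3627 and 3774. For all of these the as1-1 arrays lay above both WT arrays with no overlap.

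WRKY40 was 4.44-fold higher in as1-1 (log2 difference 2.15 ± 0.064 SE, adjusted p = 2.19e-05). WRKY48 was 3.39-fold higher (1.76 ± 0.104, adjusted p = 0.000253). WRKY46 was 2.96-fold higher (1.57 ± 0.186, adjusted p = 0.00329), and WRKY33 was 2.37-fold higher (1.25 ± 0.049, adjusted p = 5.82e-05). These 4 stayed called under each of the alternatives run, although the log2 difference of WRKY48 was 1.10 with normexp background correction.

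WRKY14, of class IIe, read 53.2 and 46.71 in WT and 106.7 and 109.6 in as1-1, a 2.17-fold rise (adjusted p = 0.0145). With normexp its log2 difference was 0.43 in place of 1.12, and the call was lost (adjusted p = 0.0615). WRKY29, which acts below the flagellin-triggered kinase cascade, rose by 0.57 ± 0.089 (adjusted p = 0.00894), from 674.7 and 654.5 to 1020 and 950.4. Other rises were those of WRKY26, a heat-response factor (0.51), and WRKY70, a central salicylic acid factor (0.50). WRKY22, the partner of WRKY29 in elicitor signalling, rose by 0.42 and WRKY57 by 0.41. With normexp the log2 difference of WRKY57 was 0.19. Of 17 alternatives, the call of WRKY57 was lost under 2 and that of WRKY70 under 3. The calls of WRKY29, WRKY57 and WRKY70 were lost without as1-1 replicate 1 (adjusted p = 0.0541, 0.0618 and 0.0709). That of WRKY14 was lost without WT replicate 2 or without either as1-1 replicate (adjusted p from 0.0637 to 0.0689), and that of WRKY22 without any 1 of the WT, as1-1 or double-mutant arrays (0.0542 to 0.174).

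The falls in as1-1 were smaller, and none reached 2-fold. WRKY30, of class III, read 49.64 and 49.1 in WT and 32.27 and 28.13 in as1-1 (log2 difference -0.71 ± 0.090, adjusted p = 0.00419). WRKY23, an auxin-responsive factor of root development, read 327.9 and 290.4 against 181.7 and 202.6 (-0.69 ± 0.085, adjusted p = 0.00384). WRKY8, with a role in responses to virus and salt, fell by 0.62. WRKY12, which represses secondary wall formation in pith, fell by 0.58. WRKY27 fell by 0.32, WRKY45 by 0.29 and WRKY6 by 0.27. A second kept probe for WRKY6 had a log2 difference of 0.08, so the fall of that gene rests on the probe used. Leaving out 1 array ended the calls of WRKY45 (any of the 8, adjusted p up to 0.196), of WRKY6 and WRKY12 (WRKY12 up to 0.114; each without WT replicate 1 or either as1-1 replicate), of WRKY27 (WRKY27 up to 0.0657; WRKY27 without WT replicate 1 or as1-1 replicate 2) and of WRKY8 (up to 0.0515; without WT replicate 2 or as1-1 replicate 1).

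In all, 17 members were called in as1-1, with 10 higher and 7 lower, or 35.4% of the members against 19.2% of all genes tested. In the upward direction the share of all genes was 7.09%, and in the downward direction 12.1%. The median log2 difference of the members was 0.02 and that of all genes -0.04. Of the 10 members of class IIc, 2 rose and 4 fell, and of the 7 members of class IId 2 had an unadjusted p under 0.05 in limma but none passed after adjustment. Without as1-1 replicate 1 the count was 8 members, beside 9.98% of all genes, and with no filter on dim probes it was 11, beside 5.9%.

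Genes that respond rapidly to touch and wounding rose beside these WRKY genes. From a list of 12 such genes, chosen with earlier results of these data known, 11 were tested. Against 7.09% of all genes, all 11 were higher in as1-1, with a median log2 difference of 1.95. Among them CML38, a calmodulin-like protein, rose by 2.97, the stress regulator BAP1 by 2.88, the zinc finger factor ZAT10 by 2.60 and ZAT12 by 2.24. The summed signal of the list was 26770 to 28190 in WT and 100600 to 101100 in as1-1. The part of such a response in the WRKY rises was not tested.

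The as1-1 allele had another effect on these genes in plants that also carried tfl2-1. WRKY40 read 1311 and 1340 in tfl2-1 and 734.4 and 756.6 in the double mutant, a 1.78-fold fall (log2 difference -0.83 ± 0.064, adjusted p = 0.000511). WRKY33 read 972.3 and 994.8 against 814.7 and 851.8, a fall of 0.24 (adjusted p = 0.014) that lost its call without either tfl2-1 replicate or without double-mutant replicate 1 (adjusted p up to 0.0724). WRKY46 read 29.81 and 44.07 against 38.93 and 47.37, and that difference did not pass (0.24 ± 0.186, adjusted p = 0.359). WRKY40 and WRKY33 were thus lower with as1-1 in this background without overlap, while the ranges of WRKY46 overlapped. The fall of WRKY33 was little larger than the largest spike-in difference of the same comparison (-0.219).

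WRKY48 rose with as1-1 here too, from 122.9 and 140.6 to 167.2 and 176.4 (0.39, adjusted p = 0.0356), but by less than in TFL2 plants, and this call was lost without either as1-1 replicate, tfl2-1 replicate 1 or either double-mutant replicate (adjusted p up to 0.154). WRKY22 fell from 419.9 and 497.6 to 282 and 302 (-0.65, adjusted p = 0.00743). From the rapid touch and wound list none rose and 7 of 11 fell, with a median of -0.39, where 18% of all genes were lower. The summed signals were 20450 to 20510 in tfl2-1 and 15470 to 15620 in the double mutant.

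**Figure D2:**
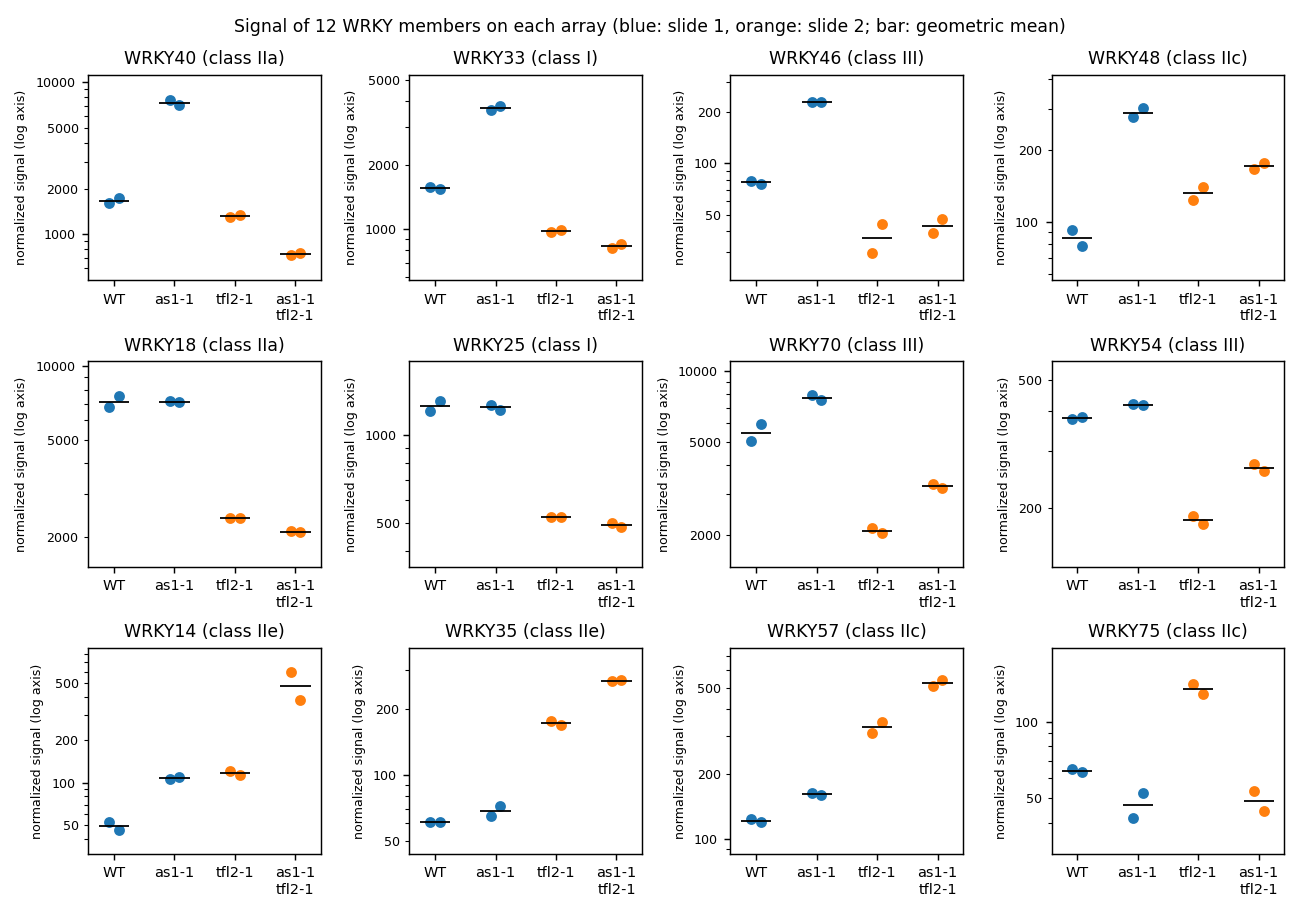
Scaled signal (log axis, arbitrary units) of 12 WRKY members on each of the 8 arrays, by genotype; blue points are slide 1, orange points slide 2, and the bar is the geometric mean of 2 arrays. WRKY40 is highest on the as1-1 arrays and lowest on the double-mutant arrays, and WRKY14 is highest in the double mutant.

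Whether the as1-1 effect differed between the 2 backgrounds was tested as an interaction, the as1-1 effect in tfl2-1 plants minus that in TFL2 plants. Because each effect lies within a slide, an offset shared by all arrays of a slide cancels in it. The interaction was -2.98 ± 0.091 for WRKY40 (adjusted p = 3.22e-05), -1.49 ± 0.069 for WRKY33 (adjusted p = 0.000136), -1.37 ± 0.147 for WRKY48 (adjusted p = 0.00257) and -1.32 ± 0.263 for WRKY46 (adjusted p = 0.0197). The WRKY46 call was lost without any 1 of the WT and as1-1 arrays or double-mutant replicate 1 (adjusted p up to 0.0593). WRKY22 followed with -1.07 ± 0.155 (adjusted p = 0.00722). Called negative interactions were also those of WRKY75, WRKY26 and WRKY15. WRKY29, the partner of WRKY22 in elicitor signalling, had an interaction of 0.11 that did not pass (adjusted p = 0.555). All 11 tested genes of the rapid touch and wound list also had a called negative interaction, with a median of -2.24, beside 9.67% of all genes. That list was chosen with earlier results of these data known.

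Positive interactions were called for members that fell or did not pass with as1-1 in TFL2 plants. WRKY30 had an interaction of 0.93 ± 0.128 (adjusted p = 0.00597), with its fall in TFL2 plants and a difference of 0.22 that did not pass in tfl2-1 plants. WRKY27, a class IIe factor that affects bacterial wilt symptoms, fell by 0.32 in TFL2 plants and rose by 0.54 in tfl2-1 plants (interaction 0.86 ± 0.077, adjusted p = 0.00138). WRKY13, a regulator of stem lignification and flowering, read 73.85 and 82.73 in WT, 89.37 and 79 in as1-1, 83.87 and 86.82 in tfl2-1, and 152.2 and 153.1 in the double mutant (interaction 0.73 ± 0.115, adjusted p = 0.00928). The double-mutant arrays stood above the other 6, which overlapped. WRKY8 had an interaction of 0.61, which lost its call without any 1 array other than as1-1 replicate 2 (adjusted p up to 0.0968).

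In total 15 members had a called interaction, 7 positive and 8 negative, or 31.2% against 20.3% of all genes (10.6% positive and 9.67% negative). Of these, 8 had as1-1 effects of opposite sign in the 2 backgrounds, and both effects were called in 5 (WRKY22, WRKY26, WRKY27, WRKY33 and WRKY40). Among the 5, the WRKY33 fall in tfl2-1 plants (-0.24) was little larger than the largest spike-in difference there (-0.219). With normexp 22 interactions were called, 13 of them positive, beside 21.7% of all genes called. The share of positive calls was then 59.1% in place of 46.7% for members, and 58.8% in place of 52.3% for all genes. With no filter on dim probes the count was 8, beside 5.77% of all genes.

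Against tfl2-1, the double mutant had 15 members higher and 8 lower, or 47.9% of members against 31.5% of all genes (13.5% higher and 18% lower). With only probes above background on all 8 arrays, 23 of 43 members were called, 15 higher and 8 lower, beside 34.8% of all genes. The largest rise was that of WRKY14, from 120.5 and 112.7 to 593.9 and 377.4, or 4.06-fold (log2 difference 2.02 ± 0.202, adjusted p = 0.00117). WRKY65, also of class IIe, read 69.49 and 98.28 against 247.5 and 147.1 (1.21 ± 0.264, adjusted p = 0.0179; 0.0853 without tfl2-1 replicate 1). WRKY13 rose by 0.84 and WRKY60 by 0.68. Of 7 class IIe members 5 rose and 1 fell. The medians were 0.10 for the members and 0.00 for all genes.

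The largest fall on this slide was that of WRKY75, a class IIc factor that acts in phosphate starvation and promotes senescence. It read 140.9 and 129.1 in tfl2-1 and 53.42 and 44.67 in the double mutant, a 2.76-fold fall (-1.47 ± 0.132, adjusted p = 0.000835), against 65.21 and 63.38 in WT and 41.8 and 52.55 in as1-1. The tfl2-1 arrays stood above all others, and the log2 difference was -0.84 with normexp. WRKY6, which acts in phosphate transport and senescence, fell by 0.39. From a list of 10 leaf senescence genes 9 were tested. In this comparison 6 of them fell, SWEET15 (-2.06) among them, and none rose, where 18% of all genes were lower. In as1-1 against WT 5 of the 9 fell and 1 rose, beside 12.1% and 7.09% of all genes. Their interaction was called negative in 3, SWEET15 included, and positive in 1, with a median of -0.09, beside 9.67% and 10.6% of all genes. The count of called members was 15 without tfl2-1 replicate 1, without the double-mutant replicate 1 or with no dim filter, where 12.7% of all genes were called with no dim filter and 19.4% without tfl2-1 replicate 1.

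**Figure D3:**
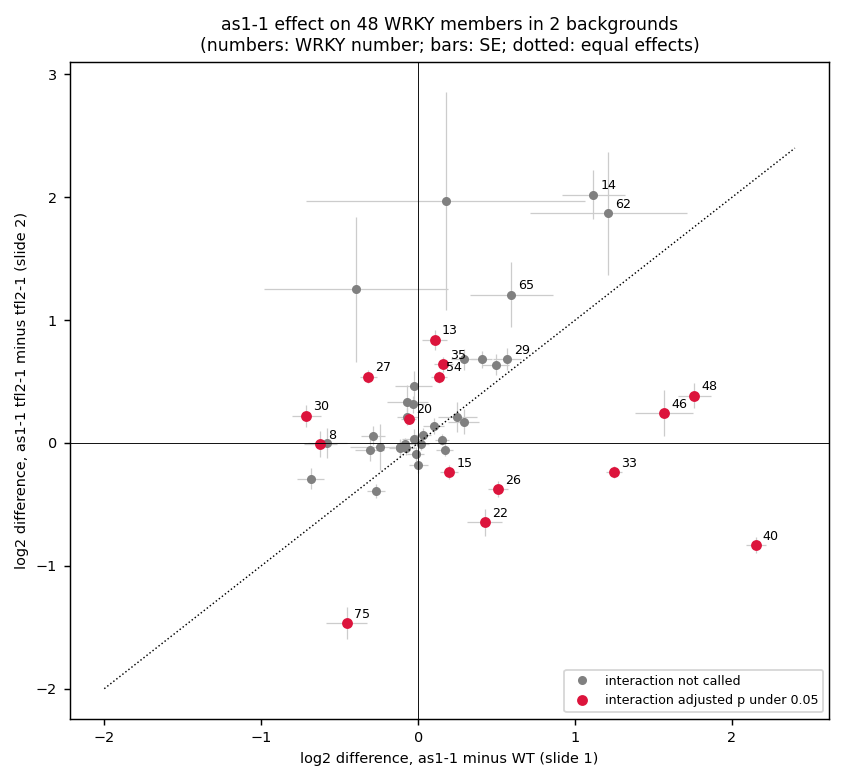
The log2 difference with as1-1 in TFL2 plants (x axis, as1-1 minus WT) against that in tfl2-1 plants (y axis, double mutant minus tfl2-1), one point per member; red points have a called interaction. WRKY40 lies at 2.15 and -0.83, WRKY14 at 1.12 and 2.02.

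The as1-1 effects in the 2 backgrounds share no arrays. Of 17 members called in TFL2 plants and 23 in tfl2-1 plants, 12 were called in both, which is 70.6% and 52.2% of the lists, against 53.7% and 32.7% for all genes. Of the 12, 5 rose in both (WRKY14, WRKY29, WRKY48, WRKY57 and WRKY70), 2 fell in both (WRKY6 and WRKY23), 4 rose and then fell (WRKY22, WRKY26, WRKY33 and WRKY40), and WRKY27 fell and then rose. For WRKY33 the fall in tfl2-1 plants (-0.24) was little larger than the largest spike-in difference there (-0.219). The sign was the same in 29 of 48 members, or 60.4%, against 56% of all genes. Across the members the differences had a Pearson r of 0.196, a description over genes that share arrays, and across all genes it was 0.158.

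In tfl2-1 seedlings 15 members rose and 17 fell, with falls in 2 of 3 members of class IIa and 4 of 8 of class III and rises in 8 of 10 of class IIc. WRKY18, which pairs with WRKY40 and WRKY60, read 6782 and 7555 in WT and 2379 and 2390 in tfl2-1. WRKY70 read 5054 and 5956 against 2140 and 2038. WRKY29 read 674.7 and 654.5 against 205.5 and 244.5. For each of them the tfl2-1 arrays were lower than both WT arrays without overlap.

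WRKY18 was 3-fold lower (log2 difference -1.59 ± 0.060, adjusted p = 1.14e-05), WRKY29 was 2.96-fold lower (-1.57 ± 0.089, adjusted p = 4.53e-05) and WRKY70 was 2.63-fold lower (-1.39 ± 0.086, adjusted p = 6.23e-05). A second WRKY18 probe gave -1.30. WRKY25, a relative of WRKY33 in heat and defence responses, fell by 1.26 ± 0.055 (adjusted p = 1.88e-05), from 1209 and 1305 to 524.4 and 524. WRKY46 fell by 1.09 and WRKY54, the partner of WRKY70 in salicylic acid signalling and senescence, by 1.05 ± 0.051 (adjusted p = 2.65e-05). WRKY40 fell by 0.33 and WRKY33 by 0.66, so both of these, which rose in as1-1, were lower in tfl2-1.

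The largest rise in tfl2-1 was that of WRKY35. This class IIe member read 61.18 and 61.12 in WT and 175.1 and 168 in tfl2-1 (2.81-fold, 1.49 ± 0.060, adjusted p = 1.44e-05). WRKY57, a drought-tolerance factor that also delays jasmonate-induced senescence, read 123.7 and 120.1 against 310.4 and 346.2 (2.69-fold, 1.43 ± 0.067, adjusted p = 2.39e-05). WRKY74, of class IId, read 74.16 and 67.78 against 186.4 and 187.7 (2.64-fold, 1.40 ± 0.067, adjusted p = 2.48e-05). WRKY45, which raises phosphate uptake and promotes senescence, read 507.1 and 490.2 against 1345 and 1225 (2.58-fold, 1.36 ± 0.077, adjusted p = 4.46e-05). Each of these had both tfl2-1 arrays above both WT arrays. WRKY14 rose by 1.23 and WRKY75 by 1.07, the former by 0.48 and WRKY35 by 0.80 with normexp.

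Of the 10 members of class IIc, 8 rose and none fell (median log2 difference 0.62), while of the 8 members of class III none rose and 4 fell (median -0.53). Of the 3 members of class IIa 2 fell, and of the 7 members of class IId 3 rose and 4 fell. Over all classes 15 members were higher and 17 lower, or 66.7% of members against 54.7% of all genes (26.2% higher and 28.4% lower). The median of the members was 0.00 and that of all genes -0.01. These values cross the slides, and the call of WRKY27 in tfl2-1 (-0.16) was lost without any 1 array other than WT replicate 2 (adjusted p up to 0.197).

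**Figure D4:**
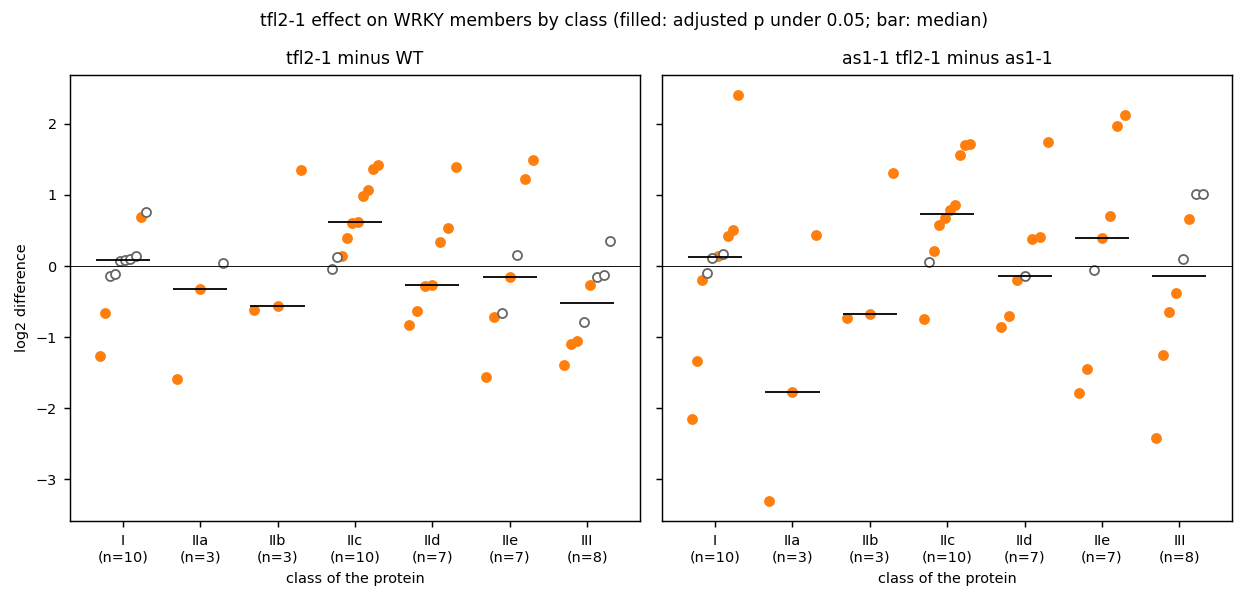
The log2 difference with tfl2-1 by WRKY class, one point per member, in AS1 plants (tfl2-1 minus WT) and in as1-1 plants (double mutant minus as1-1). The medians of class IIc are 0.62 and 0.73, and those of class III are -0.53 and -0.14.

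Genes that work with the defence WRKY factors were mostly lower in tfl2-1 as well, in lists chosen with earlier results of these data known. Of all genes, 28.4% were lower and 26.2% higher there. Of 15 genes of salicylic acid defence 11 fell and 1 rose, with a median log2 difference of -0.87; the transporter EDS5 fell by 1.52, the regulator SARD1 by 1.57, the NPR1 partner NIMIN1 by 2.11 and the pathogenesis-related gene PR5 by 1.37. Of 10 tested VQ proteins, a family of WRKY-binding cofactors, 7 fell and none rose, among them SIB1 (-1.57), which binds WRKY33. Of 8 genes of the kinase cascades above WRKY factors 4 fell and 1 rose, among them MPK3 (-0.99) and MKK1 (-0.72), listed as MEK1 in the annotation, on the falling side and MPK6 (0.22) on the rising side. Of the 9 senescence genes tested 6 rose and none fell, led by the transcription factor NAP (2.62). Of the 8 photosynthesis markers 7 fell, with a median of -0.38. The part of leaf tissue share and of flower formation in the WRKY differences was not tested.

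In as1-1, for comparison, 6 of the 15 salicylic acid defence genes rose and 3 fell, beside 7.09% and 12.1% of all genes. The regulator CBP60G was higher by 1.28 and PR2 by 1.15, and NIMIN1 was lower by 2.21. PR1, another of the 6, read 4.855 and 10.74 in WT, not well above background, and 37.9 and 31.22 in as1-1. Of the 10 VQ proteins 1 rose, CAMBP25 (1.71), and 1 fell. Of the 8 kinase genes MKK4 was called (0.52). Such counts do not set the VQ or the kinase list apart from all genes, of which 19.2% were called. From the list of camalexin genes and FRK1, known targets of WRKY33 and of WRKY29 signalling, 3 of 4 were tested. In limma 0 of these had an unadjusted p under 0.05 in any of the 6 comparisons. PAD3 read 110.6 and 130.4 in WT and 135 and 140.1 in as1-1. CYP71A12, below background on both WT arrays, had an SE of 0.90 and FRK1 one of 0.48, so a change in either could be missed.

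**Figure D5:**
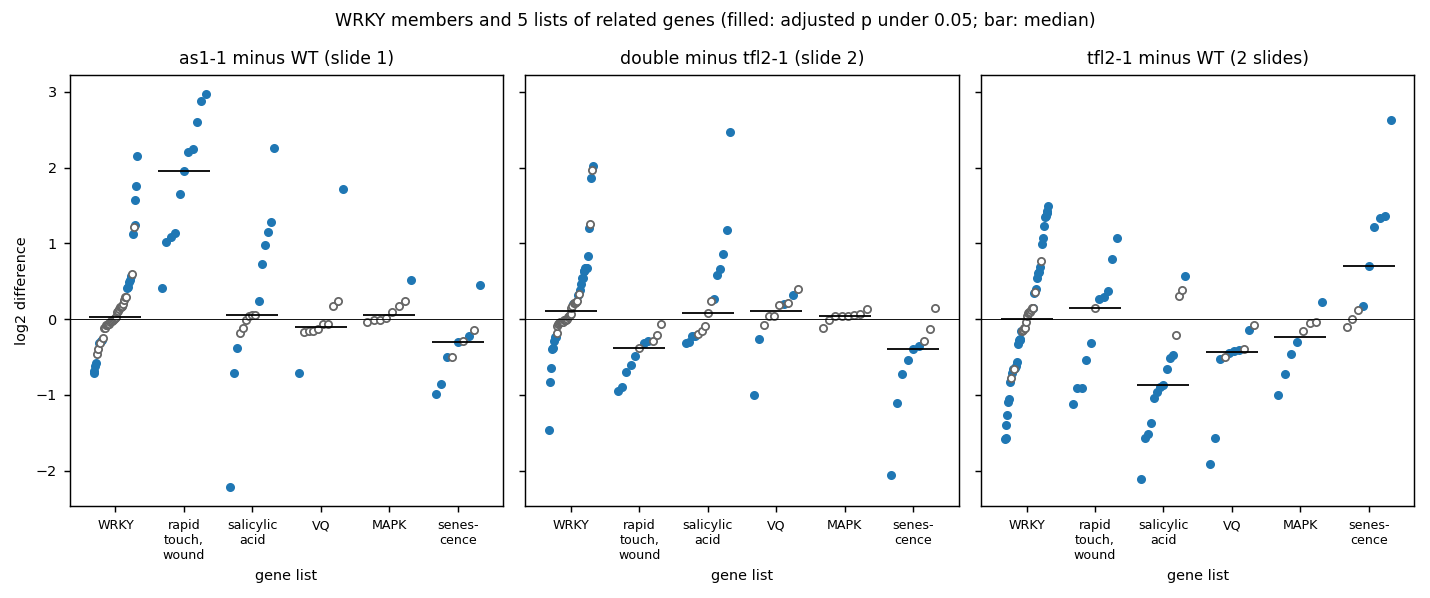
The log2 differences of the WRKY members and of 5 related gene lists in as1-1 minus WT, double mutant minus tfl2-1 and tfl2-1 minus WT, one point per gene, with the median marked. The 11 rapid touch and wound genes are all above 0 in as1-1 (median 1.95) and have a median of -0.39 in the double mutant against tfl2-1.

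In the double mutant, WRKY14 was 9.50-fold above WT (log2 difference 3.25 ± 0.202, adjusted p = 4.07e-05) and 2.07 on the log2 scale with normexp. WRKY35 read 265.9 and 269.1, or 4.37-fold above WT (2.13 ± 0.060, adjusted p = 2.76e-06), and WRKY57 read 509.1 and 542, or 4.31-fold above (2.11 ± 0.067, adjusted p = 3.95e-06). WRKY74 rose by 1.71, WRKY45 by 1.42 and WRKY48 by 1.01. With normexp the difference was 1.31 for WRKY35 and 1.11 for WRKY74. For WRKY14, WRKY35, WRKY57 and WRKY74 both double-mutant arrays were above all other arrays.

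The largest falls from WT in the double mutant were those of WRKY18 (-1.77 ± 0.060, adjusted p = 4.6e-06), WRKY22 (-1.36 ± 0.110, adjusted p = 0.000115), WRKY25 (-1.35 ± 0.055, adjusted p = 9.06e-06) and WRKY40 (-1.16 ± 0.064, adjusted p = 2.62e-05). WRKY6 fell by 1.01 and WRKY33 by 0.90. WRKY18 read 2114 and 2089 and WRKY25 read 501.1 and 483.2 in the double mutant, close to their tfl2-1 values, and their differences from tfl2-1 did not pass (-0.18 and -0.09). WRKY70 read 3322 and 3180 in the double mutant, between the tfl2-1 and WT arrays, and WRKY54 read 274.3 and 260.3, also between them. In all 20 members were higher and 17 lower than WT, or 77.1% of members against 63.7% of all genes (30.8% higher and 32.9% lower). The 20 include WRKY10, WRKY36 and WRKY62, which this genotype helped to make members. With only probes above background on all 8 arrays, 34 of 43 members were called, 17 higher and 17 lower, beside 66.4% of all genes. Beside these, all 8 leaf photosynthesis markers fell, with a median of -0.62, and all 8 floral markers rose, with a median of 6.91; their part in the WRKY differences was not tested. The 3 comparisons with WT share the WT arrays.

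Compared with as1-1, the double mutant had 22 members higher and 17 lower, or 81.2% against 61.5% of all genes (32.5% higher and 29% lower). WRKY40 was 9.90-fold lower (-3.31 ± 0.064, adjusted p = 8.62e-07), WRKY46 was 5.33-fold lower (-2.41 ± 0.186, adjusted p = 0.000104; -1.51 with normexp) and WRKY33 was 4.44-fold lower (-2.15 ± 0.049, adjusted p = 1.2e-06). WRKY22 fell by 1.78. WRKY14 rose by 2.13, WRKY35 by 1.97 (1.33 with normexp), WRKY74 by 1.75 and WRKY45 by 1.71. The tfl2-1 effect had the same sign in AS1 and in as1-1 plants in 40 of 48 members, or 83.3% against 78.9% of all genes. The 30 members called in both made up 93.8% and 76.9% of the lists in AS1 and as1-1 plants. For all genes these shares were 79.8% and 70.9%. Of the 30, 12 rose in both, 14 fell in both, WRKY26 and WRKY48 rose and then fell, and WRKY27 and WRKY30 fell and then rose. Both of these effects cross the slides.

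Close relatives within the family did not share one pattern. In class IIa, WRKY40 rose in as1-1, while WRKY18 had a difference of 0.00 (adjusted p = 0.986) by the probe used and 0.24 by its second probe. WRKY60 read 500 and 489.7 in WT, 610.1 and 600.2 in as1-1, 494.6 and 524.4 in tfl2-1, and 886.1 and 752.3 in the double mutant. WRKY60 was thus highest in the double mutant, where WRKY18 and WRKY40 were lowest. WRKY25 and WRKY33 both fell in tfl2-1, but in as1-1 WRKY25 had a difference of -0.02 (adjusted p = 0.86) beside the rise of WRKY33. WRKY54 and WRKY70 fell in tfl2-1 and rose from there in the double mutant (0.54 and 0.64), while in as1-1 WRKY70 was called and WRKY54 was not (0.13, adjusted p = 0.123).

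WRKY11 and WRKY17, both of class IId and negative regulators of basal resistance, fell in tfl2-1 by 0.83 and 0.64. In the double mutant WRKY11 read 2074 and 2097 against 2166 and 2034 in tfl2-1, while WRKY17 rose to 466.9 and 363.2 from 298.3 and 299.1 (0.46, adjusted p = 0.0307), a call lost without either as1-1 or tfl2-1 replicate or double-mutant replicate 1 (adjusted p up to 0.109). WRKY12 rose in tfl2-1 by 0.99, with 172.8 and 165.2 against 95.2 and 76.3 in WT, where WRKY13, its counterpart in flowering time, had a difference of 0.13 that did not pass. WRKY53, a promoter of leaf senescence, was not called in as1-1 or tfl2-1 (0.17 and -0.15), and its second probe gave 0.54 in as1-1, whereas WRKY30 fell in both, in tfl2-1 with a call lost without any 1 WT or tfl2-1 array (adjusted p up to 0.197). WRKY28, known for activating salicylic acid synthesis, rose in tfl2-1 by 0.14 (adjusted p up to 0.176 without any 1 array), and its relative WRKY71 was not above background on both arrays of any genotype. The same held for WRKY31, the relative of WRKY6, and for WRKY50 and WRKY51. WRKY50 was flagged on 1 as1-1 array and 1 double-mutant array.

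The dim members carry bounds only. WRKY36 was above background on neither WT array, on 1 as1-1 array and on all tfl2-1 and double-mutant arrays. It was at least 1.87-fold higher in tfl2-1 and at least 2.16-fold higher in the double mutant than in WT, which is a description, since these genotypes made it a member, with signals of 13.72 and 12.45 in WT, 32.86 and 33.64 in tfl2-1, and 36.72 and 40.25 in the double mutant. WRKY10, known as MINI3 for its role in seed size, was above background in the double mutant only, at 29.65 and 15.37. That signal was at least 1.20-fold that in WT and at least 1.57-fold that in as1-1, which is a description, since WRKY10 became a member through the double mutant. With normexp the log2 difference between the double mutant and WT was 0.15 for WRKY36 and 0.18 for WRKY10. That of WRKY36 between tfl2-1 and WT was then 0.06 and did not pass.

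WRKY62, a class III repressor of basal defence, was also above background on both arrays only in the double mutant, at 36.28 and 13.9. That signal was at least 1.26-fold that in WT and at least 1.15-fold that in tfl2-1, again a description of the group that made WRKY62 a member. With normexp the log2 difference of WRKY62 between the double mutant and WT was 0.20. WRKY38, which acts with WRKY62, read 25.92 and 4.968 in WT and 35.1 and 19.04 in the double mutant, and the groups overlapped. WRKY41 read between 18.18 and 26.41 on the 8 arrays, with overlap among all genotypes.

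Members with small differences made up much of class I. WRKY2, WRKY3, WRKY20, WRKY32 and WRKY58 had log2 differences from WT between -0.18 and 0.36 in the 3 mutants. WRKY32 was called in the double mutant (0.36, adjusted p = 0.00459), where it read 1933 and 1991 against 1618 and 1446 in WT. WRKY2 (0.14, adjusted p = 0.0465) and WRKY3 (-0.18, adjusted p = 0.037) were also called there. The calls of WRKY2 and WRKY3 were lost without any 1 of the WT, as1-1 or double-mutant arrays. WRKY19, an unusual member that joins WRKY and resistance-protein domains, read 57.8 and 55.7 in WT and 76.56 and 76.46 in the double mutant (0.43, adjusted p = 0.0286; up to 0.103 without any 1 WT or double-mutant array). Among the class IId members, WRKY7 and WRKY15 fell in tfl2-1 by 0.28 and 0.27, and WRKY21 and WRKY39 rose by 0.34 and 0.54 (1.02 by a second WRKY39 probe). WRKY47, of class IIb, fell by 0.57, and WRKY49, of class IIc, rose by 0.61. WRKY69, of class IIe, was called only against as1-1, where the double mutant was higher by 0.40 (adjusted p up to 0.053 without as1-1 or double-mutant replicate 1).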

How the data were processed

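The authors deposited 1 scanner file per array, in which the processed intensity of a spot is background-subtracted and detrended, per the file headers; the submitters' processing notes name Agilent Feature Extraction 10.7. A deposited value table holds log2 values, whose normalization is not given in the sources used here; it served as an alternative. From the files, log2 of the processed signal minus each array's 75th percentile was taken, spots of a probe were averaged, outlier spots and controls were left out, and probes well above background on both arrays of at least 1 genotype were kept (30467 of 43603). Accessions were matched to loci in the RefSeq gene table (34285 probes), and the kept probe with the highest mean stood for a gene. One mean per genotype was fitted over all 8 arrays in R 4.3.3 with limma 3.58.1, files being read by the data.table package, version 1.17.8; tests were two-sided, with Benjamini-Hochberg adjustment over 22668 genes; 2 arrays a genotype limit the precision, and only differences within a probe are given. The script was tested on simulated data. The members, the gene lists and the classes, set from textbook knowledge, were chosen with earlier results of these data known. Named were the 6 largest called rises and falls in each comparison with WT and 4 in the others, members below background in a genotype, class IIa and close pairs, and up to 4 genes a list; other members were added after their values were seen. Alternatives were normexp (offset 50), quantile normalization, the deposited table, other filters and probe rules, a replicate block, fewer arrays and leaving out each array.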

Additional observations from a re-analysis of the deposited data

Results flagged for a closer look

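The as1-1 effect differed between TFL2 plants and tfl2-1 plants in 15 members by the interaction test in limma (adjusted p under 0.05). The interaction on the log2 scale, the effect in tfl2-1 plants minus that in TFL2 plants, was negative for WRKY40 (-2.98), WRKY33 (-1.49), WRKY48 (-1.37), WRKY46 (-1.32), WRKY22 (-1.07), WRKY75 (-1.01), WRKY26 (-0.89) and WRKY15 (-0.44). It was positive for WRKY30 (0.93), WRKY27 (0.86), WRKY13 (0.73), WRKY8 (0.61), WRKY35 (0.48), WRKY54 (0.40) and WRKY20 (0.26). The calls of WRKY20 and WRKY8 were lost under 11 and 10 of 16 alternatives, that of WRKY46 under 6. No group had enough arrays for a test of single outlying samples.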

How the results depend on the processing

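Every called difference of a member kept its sign under all alternatives run. Of the members called, those called under every alternative were 7 of 17 in as1-1 against WT, 28 of 32 in tfl2-1 against WT, 28 of 37 in the double mutant against WT, 32 of 39 against as1-1, 13 of 23 against tfl2-1 and 8 of 15 for the interaction. With no filter on dim probes the called members numbered 11 in as1-1 against WT, 15 in the double mutant against tfl2-1 and 8 for the interaction; more genes are tested there. Leaving out 1 array gave 8 to 16 called members in as1-1 against WT, 29 to 31 in tfl2-1 against WT, 31 to 36 in the double mutant against WT, 33 to 38 against as1-1, 15 to 24 against tfl2-1 and 12 to 15 for the interaction. The lowest counts came without as1-1 replicate 1 (8) and, against tfl2-1, without tfl2-1 replicate 1 or double-mutant replicate 1 (15 each). The share of all genes called was also lower in as1-1 against WT without as1-1 replicate 1, and against tfl2-1 without tfl2-1 replicate 1. A genotype left with 1 array was assumed to vary like the others. The replicate numbers did not pair the arrays (correlations of deviations -0.049 to 0.055 over 6 pairs of genotypes), and a replicate block gave 14, 29, 34, 38, 21 and 14 called members in the same order, each within 1.5 times. Of 60 named differences 10 lost their call at least once. The as1-1 call of WRKY45 was lost under 14 of 17 alternatives and that of WRKY22 under 9. Normexp lowered log2 differences of dim members most (WRKY36 in tfl2-1, 0.06 in place of 1.35). It was run with an added offset of 50, and a constant added to all signals shrinks log2 differences of dim ones most. The share of the offset in these changes was not tested. Signals near background limit WRKY10, WRKY36, WRKY38, WRKY41 and WRKY62.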
